A study of Mus musculus with 25 samples.

Results

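The genes of the cytosolic ribosomal proteins were examined in RNA-seq of oligodendrocyte precursor cells that were laser-captured from mouse brain. Of the 23351 gene rows of the deposited table, 86 were chosen by symbol alone, with no measured value: Rpl or Rps followed by a digit, the stalk genes Rplp0, Rplp1 and Rplp2, and Rpsa. Rows of the S6 kinases and rows marked as pseudogenes (-ps) were left out. The 86 comprise 31 genes of the small subunit, 43 of the large subunit, 3 of the stalk, 8 paralogs with a distinct symbol, and Rps19bp1, which encodes a binding partner of a ribosomal protein and not a ribosomal protein.

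The study compared 10 Control libraries with 8 libraries at Day 5 and 7 libraries at Day 15 of white matter stroke, an ischaemic lesion of the brain's fibre tracts. Values were deposited as RPKM (reads scaled for transcript length and for the library's mapped reads). Levels set side by side between genes rest on that scaling. How gene length and reads with several matches were handled is unknown. The labels name no strain, sex, genotype or animal for any group, and give the source of all 25 libraries as oligodendrocyte precursor cells. They do not say how the cells were recognised or how many were captured for a library. Libraries that share an animal would make the p-values below too small, and the spread between libraries may be partly technical.

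A ribosome is built from ribosomal RNA and a large set of small, mostly basic proteins. The small subunit decodes the messenger RNA, the large subunit joins amino acids, and the stalk of the large subunit, formed by the acidic proteins Rplp0, Rplp1 and Rplp2, recruits the elongation factors. Many mRNAs of ribosomal proteins start with a run of pyrimidines, the 5′ terminal oligopyrimidine (TOP) tract, through which mTOR signalling controls their translation. Their genes have left many processed pseudogenes in mammalian genomes, and several host small nucleolar RNAs in their introns. Oligodendrocyte precursors divide in the adult brain, and differentiating oligodendrocytes make large amounts of myelin protein.

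The start of the transcript is shown for genes described below, because the tract at the 5′ end is the sequence feature by which this family is known. RefSeq promoters on GRCm38.p6 were matched by symbol for 57 of the 77 subunit and stalk genes, with 67 start sites. Each line runs 5′ to 3′ over 30 bases, from 10 bases before the annotated start, and capitals mark the longest tract of C followed by C or T without a break, at least 5 bases long in all and starting within 10 bases of the start site.
Rpl14, with a 14-base tract (chr9:120571507-120571536, plus strand): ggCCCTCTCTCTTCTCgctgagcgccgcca
Rplp2, with a 9-base tract (chr7:141447641-141447670, plus strand): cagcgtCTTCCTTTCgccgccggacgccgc
Rps18, with an 11-base tract (chr17:33955646-33955675, minus strand): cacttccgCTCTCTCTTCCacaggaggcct
Rpl4, with no tract by this definition (chr9:64173377-64173406, plus strand): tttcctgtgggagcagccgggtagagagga
Rps3, with no tract by this definition (chr7:99483690-99483719, minus strand): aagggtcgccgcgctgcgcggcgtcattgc
A tract of this kind stood at 36 of the 67 start sites (53.7%), against 29.7% of all 32851 RefSeq promoters. The count depends on the start that RefSeq gives. In GENCODE M21 each of the genes shown begins further upstream, Rpl14 at chr9:120571444, Rplp2 at chr7:141447370 and Rps18 at chr17:33956001. Rpl4 begins there at chr9:64173375 and Rps3 at chr7:99483738, and tracts at these starts were not searched. Over the 300 bases from 250 before to 50 after the start, with both strands searched, GGGCGG was found in 61.2% of the 67 and 35.7% of all promoters. CCGGAA was found in 49.3% and 14.9%, AAGATGGCG in 7.46% and 1.40%, and TATAAA in 8.96% and 13.6%. Matches of different motifs may overlap one another, and a match is a run of letters and not a site in use.

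Most genes, the ribosomal protein genes among them, stood at low RPKM in these libraries. On average 24.9% of the 86 genes reached 1 RPKM in a library, against 13.6% of all genes. The order was reversed in some libraries, among them Control replicate 10 and Day 5 replicate 7. The mean over the 25 libraries was under 1 RPKM for 51 of the 86 genes and reached 5 RPKM for 8. For 53 genes every library had a value above 0, while 16 genes stayed under 1 RPKM in all 25. The highest means belonged to Rpl4 at 21.3 RPKM, whose protein lines the exit tunnel of the large subunit, and to Rps15 at 9.72 RPKM, of the head of the small subunit. Rpsa, the laminin receptor precursor that is also a small subunit protein, had 7.64 RPKM, and Rps3, which lies at the mRNA entry channel, had 6.31 RPKM. Rpl41, the shortest of the ribosomal proteins, had 5.91 RPKM, and Rpl32, of the large subunit, had 5.43 RPKM. Medians of these genes over the 25 libraries were lower and in another order. They were 6.84 RPKM for Rpl4, 3.32 for Rps3, 3.20 for Rps15, 1.70 for Rpl41, 1.69 for Rpsa and 1.44 for Rpl32. The median of the gene means was 1.61 RPKM for the small subunit and 0.629 RPKM for the large subunit. Ribosomes hold these proteins in equal number, apart from the paired stalk proteins, but the means of the subunit genes ran down to 0.0164 RPKM.

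The 9 rows that are not standard subunit or stalk genes had means under 1 RPKM, apart from Rpl36al. So did 43 of the 77 subunit and stalk genes. Rpl36al, a paralog of Rpl36a, averaged 3.71 RPKM. The other 7 paralogs ranged from 0.521 RPKM for Rps27l, through Rpl7l1 at 0.261 RPKM, Rpl22l1 at 0.219 RPKM, Rps4y2 at 0.0707 RPKM, Rpl3l at 0.0153 RPKM and Rpl10l at 0.00369 RPKM, to 0.000150 RPKM for Rpl39l. Rpl3l is known from striated muscle, and Rpl10l and Rpl39l from testis. Rps19bp1 averaged 0.209 RPKM.

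**Figure D1:**
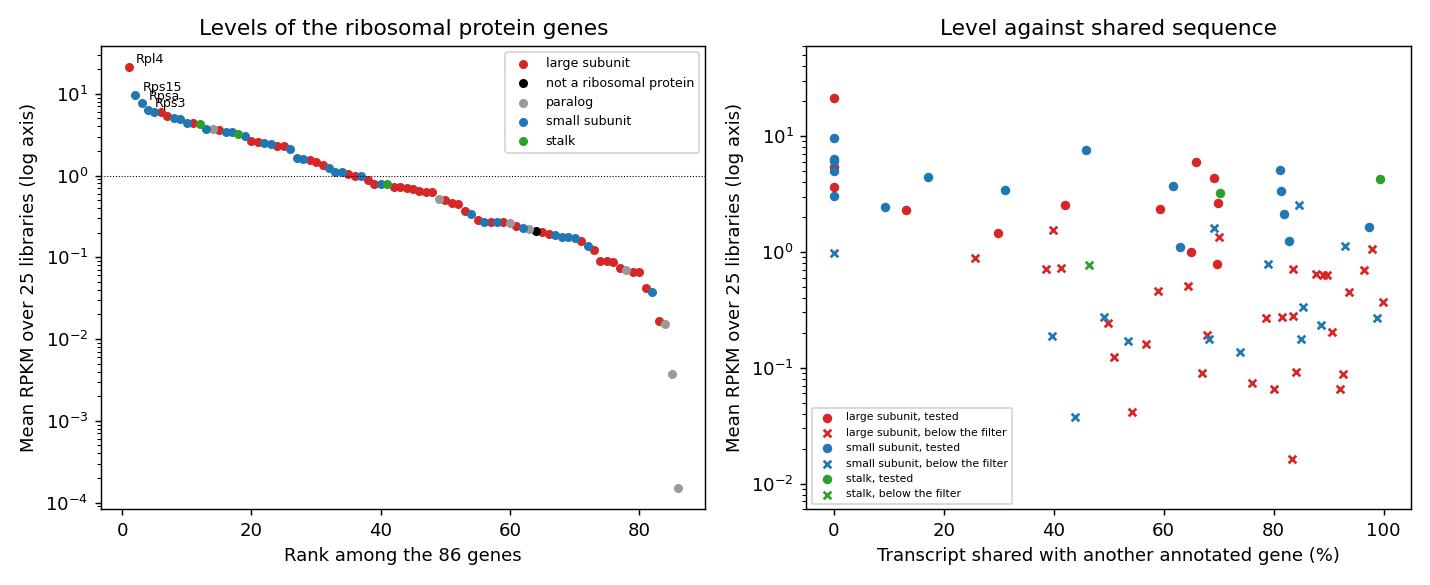
Left: mean RPKM over 25 libraries (log axis) against rank for the 86 genes, coloured by class, with a dotted line at 1 RPKM. Right: mean RPKM (log axis) of the 77 subunit and stalk genes against the share of the transcript that matches another annotated gene, with dots for the genes tested and crosses for those below the filter; the 9 genes at 0% shared lie between 0.985 and 21.3 RPKM.

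Level was lower where more of the transcript is repeated in transcripts of other annotated genes. Each gene's main transcript in GENCODE M21 (GRCm38) was compared with the transcripts of all other annotated genes, pseudogenes included, and bases in matches of at least 100 bases at 98% identity or more were counted as shared. Over the 77 subunit and stalk genes a median of 68.2% of the transcript was shared (0 to 99.9%), with a median of 3 other genes. Rpl21 matched 17 other genes, and Rpl31, Rpl7a and Rps2 matched 11 each. The 9 genes with no shared bases, among them Rpl4, Rps15, Rps3 and Rpl32, had a median of 5.43 RPKM. The 25 genes with up to 50% shared had a median of 2.43 RPKM, the 52 with more had 0.566 RPKM, and the 11 with over 90% had 0.453 RPKM. Across the 77 genes, which share the same libraries, Spearman's rho between the shared percentage and mean RPKM was -0.39. The sources used here do not say whether reads with several matches were dropped, and their part in the low levels was not tested. The median was 0.779 RPKM for the 30 genes with a small nucleolar RNA inside them and 0.790 RPKM for the 47 without.

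Libraries differed widely in how many of the 86 genes they showed. The number at 1 RPKM or more was 14.8 ± 11.5 (SD, n = 10) in Control libraries (lowest 0, median 9, highest 34). Day 5 libraries had 30.5 ± 17.0 (SD, n = 8; 5, 30 and 59), and Day 15 libraries had 20.4 ± 12.1 (SD, n = 7; 5, 22 and 37). These ranges overlapped. The number of all genes at 1 RPKM or more moved the same way, at 2467 ± 890 (SD, n = 10), 4217 ± 1495 (SD, n = 8) and 2980 ± 1248 (SD, n = 7). Day 5 replicate 3 showed 59 members among 6592 genes, and Control replicate 10 showed 0 members among 1699 genes. Of the summed RPKM without the ribosomal RNA precursor row Rn45s, the 86 genes took 0.430% ± 0.248 in Control libraries (SD, n = 10). The share was 0.670% ± 0.530 at Day 5 (SD, n = 8). By Day 15 it was 0.310% ± 0.128 (SD, n = 7). The median share was not higher at Day 5, with 0.516% in Control, 0.486% at Day 5 and 0.348% at Day 15. Day 5 replicates 6 and 3 had the highest shares of all libraries and raised the Day 5 mean. The depth of the libraries is unknown, because the low RPKM values do not step in whole reads, so no counting interval can be given.

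**Figure D2:**
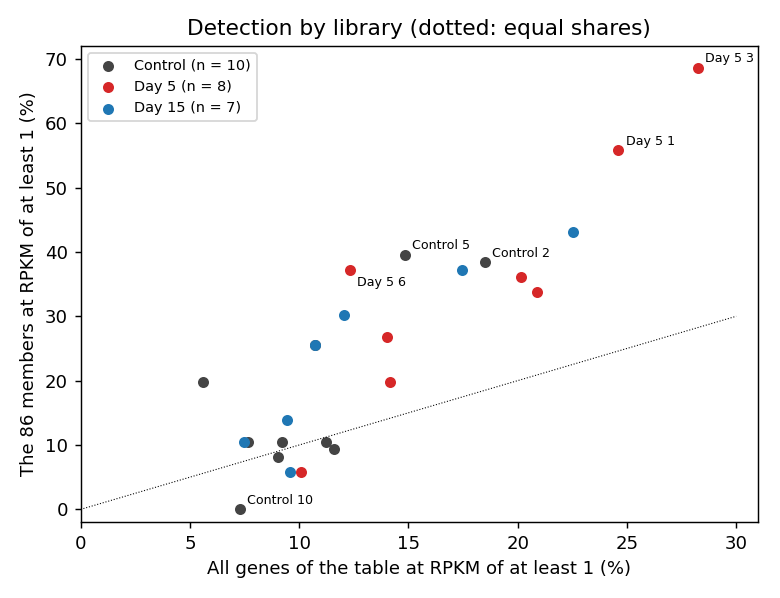
Each point is 1 library: percent of the 86 genes at 1 RPKM or more (vertical) against percent of all 23351 genes at 1 RPKM or more (horizontal), with a dotted line where the shares are equal. Day 5 replicate 3 lies at 68.6% and 28.2%, and Control replicate 10 at 0% and 7.28%.

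The labelled cell type was checked against its markers. Of the defining genes of precursors, Pdgfra and Cspg4 each averaged 1.11 RPKM and Olig2 0.853 RPKM in Control libraries. Cspg4 was listed at 0 in 3 Control libraries. The defining gene Sox10 is not given here. The summed RPKM of 15 precursor markers ran from 10.2 to 115 over Control libraries, while 14 myelin genes of mature oligodendrocytes summed to between 186 and 1411. In Control libraries the myelin genes were thus the higher set. The medians of the precursor and myelin sums were 23.3 and 835 RPKM in Control. They were 33.3 and 328 RPKM at Day 5, and 46.1 and 186 RPKM at Day 15. Sums over different genes do not measure the share of each cell type.

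At Day 5 the ribosomal protein genes leaned upward, without a gene passing the test. The mean RPKM was above the Control mean for 79 of 86 genes, where 71.1% of the 22610 genes with a value above 0 in any library were. The median was above the Control median for 81 genes, against 77.7% of those 22610. The highest of the 25 values lay in a Day 5 library for 61 genes, against 43.8%, and Day 5 replicate 3 alone held 32 of these and Day 5 replicate 6 held 15. For none of the 86 genes were the Day 5 and Control ranges apart, against 0.533% of the 4319 genes tested. The 86 include 55 genes that were not tested, and beside so small a share a count of 0 says little. The same limit holds for the range counts given below for Day 15. Summed over the 86 genes, RPKM was 83.0 ± 58.8 (SD, n = 10) in Control (8.15 to 181) and 295 ± 276 (SD, n = 8) at Day 5 (24.9 to 766). Without Day 5 replicates 3 and 6, a choice made after seeing the data, the Day 5 mean was 160 RPKM and the mean was above Control for 70 of 86 genes, against 68.8% of the 22610.

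The test was limma on log2(RPKM + 1) over the 4319 genes with at least 1 RPKM in at least 7 libraries, with Benjamini-Hochberg adjustment. Of the 86 genes, 31 passed that filter: 16 of the small subunit, 12 of the large subunit, Rplp0, Rplp1 and Rpl36al. At an adjusted p under 0.05, 0 of the 31 were called at Day 5, against 6.04% of all genes tested (261 genes, of which 260, or 6.02%, were higher). At an unadjusted p under 0.05, 18 of the 31 (58.1%) were higher and 0 lower, where 25.6% of all genes were higher and 0.347% lower. These were 12 of 16 in the small subunit, 4 of 12 in the large subunit and both stalk genes. The median difference was 1.14 on the log2 scale (30 of 31 above 0), beside 0.61 over all genes tested (84.9% above 0). It was 1.29 for the small and 1.04 for the large subunit, and the difference between the subunits was not tested. Genes pass the filter more easily where 1 group is high, so these counts describe the tested genes and not the family. Without Day 5 replicates 3 and 6 the median was 0.64, beside 0.55 over all genes. Upper-quartile scaling of the libraries took it to 0.53 and the median of all genes to 0.10.

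Rpl7, Rpl32 and Rpl14, all of the large subunit, had the smallest p-values at Day 5. Rpl7 had 0.0768, 0.301 and 1.59 RPKM in Control (lowest, median and highest) and 0.736, 3.05 and 22.1 RPKM at Day 5. The values of 4 of the 8 Day 5 libraries lay above every Control library. The difference was 1.54 on the log2 scale (SE 0.50, 95% interval 0.53 to 2.55, limma adjusted p = 0.0534).

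Rpl32 had 0.0545, 0.681 and 6.07 RPKM in Control and 0.321, 6.23 and 43.5 RPKM at Day 5. Its highest value was in Day 5 replicate 3 and its lowest Day 5 value, below the Control median, in replicate 7. The difference was 1.85 (SE 0.61, 95% interval 0.64 to 3.07, limma adjusted p = 0.0534). Rpl14 had 0.0202, 0.179 and 1.57 RPKM in Control and 0.300, 1.59 and 6.59 RPKM at Day 5, with a difference of 1.02 (SE 0.34, 95% interval 0.34 to 1.70, limma adjusted p = 0.0536). Control replicate 2 held the high Control value, and 5 of the 8 Day 5 libraries lay above it. These adjusted p-values are just above the threshold, and leaving out single libraries (Control replicate 2 or 5, or Day 5 replicate 6, 7, 8 or 9) moved the number of genes called from 0 to between 2 and 6.

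**Figure D3:**
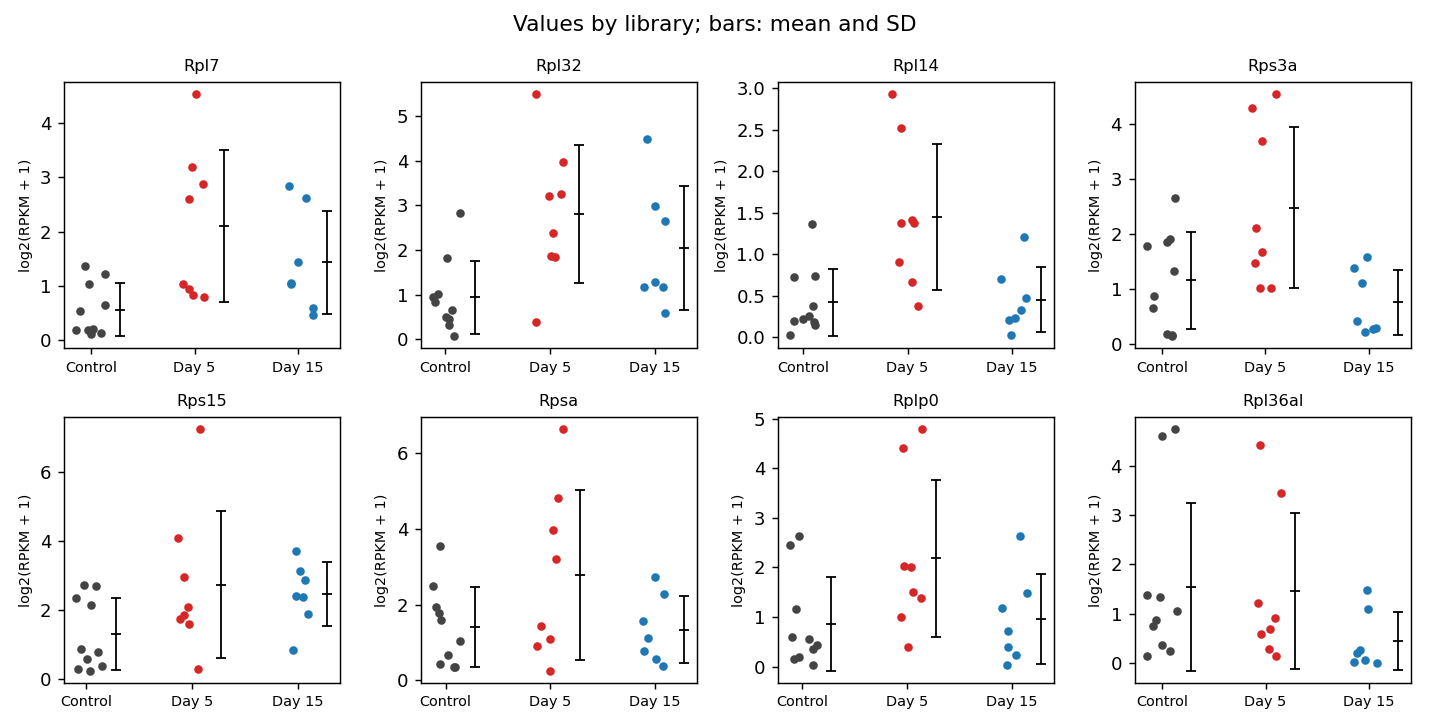
log2(RPKM + 1) in every library for 8 genes (dots; Control n = 10, Day 5 n = 8, Day 15 n = 7), with the mean and SD of each group as bars beside them. For Rpl7 the Day 5 dots start at 0.736 RPKM and reach 22.1 RPKM, and for every gene shown the groups overlap.

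Among the genes of highest level, single libraries carried much of the Day 5 mean. Rps15 had 0.174, 0.775 and 5.59 RPKM in Control and 0.208, 2.91 and 151 RPKM at Day 5. The 151 RPKM were in replicate 6, and the Day 5 mean was 23.0 RPKM with that library and 4.71 RPKM without it. Rpsa had 0.269, 1.54 and 10.7 RPKM in Control and 0.194, 4.95 and 98.1 RPKM at Day 5, and its mean went from 19.0 to 7.68 RPKM without replicate 4.

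Rps3 had 0.382, 2.50 and 12.4 RPKM in Control and 2.86, 8.19 and 36.6 RPKM at Day 5, and here the whole Day 5 group sat above the Control median. Rpl4 had 0.132, 4.65 and 96.1 RPKM in Control and 3.51, 15.3 and 128 RPKM at Day 5. Control replicate 8, with 96.1 RPKM, was an exception among Control libraries, in which the other values were at most 22.8 RPKM. Rpl41 had 0.183, 1.16 and 31.4 RPKM in Control and 0.622, 3.74 and 46.7 RPKM at Day 5. The limma differences of Rps15, Rpsa, Rps3, Rpl4 and Rpl41 at Day 5 lay between 1.19 and 1.42 on the log2 scale, with adjusted p-values from 0.165 to 0.257.

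The stalk genes had the same shape. Rplp0, the scaffold of the stalk, had 0.0199, 0.411 and 5.18 RPKM in Control and 0.315, 2.42 and 26.7 RPKM at Day 5 (difference 1.33, limma adjusted p = 0.113). Rplp1 had 0.0602, 0.515 and 5.23 RPKM in Control and 0.108, 1.43 and 45.6 RPKM at Day 5 (difference 1.34, limma adjusted p = 0.141). Rplp2, its dimer partner, had 0.0272, 0.0605 and 3.02 RPKM in Control and 0.0524, 0.377 and 5.55 RPKM at Day 5, and it was below the filter. The highest Day 5 value came from replicate 3 for Rplp0 and Rplp2 and from replicate 6 for Rplp1, and the Day 5 mean of Rplp2 was 1.06 RPKM with replicate 3 and 0.413 RPKM without it.

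At Day 15 the mean was above the Control mean for 52 of 86 genes, against 53% of the 22610 genes with a value above 0, and the ranges overlapped for all 86, against 0.0926% of tested genes with ranges apart. Summed RPKM was 101 ± 74.0 (SD, n = 7), from 29.4 to 217. In the limma test 0 of 31 genes were called, against 0.0926% of all genes tested (4 genes), and 0 of 31 had an unadjusted p under 0.05, where 8.87% of all genes did. The median difference from Control was 0.10 on the log2 scale (19 of 31 above 0), beside 0.17 over all genes tested (62.1% above 0).

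The smallest p-values at Day 15 belonged to Rpl36al, Rpl32 and Rps18. Rpl36al had 0.0967, 0.957 and 25.8 RPKM in Control and 0, 0.148 and 1.77 RPKM at Day 15, and the Control values above 2 RPKM were those of replicates 1 and 9. Its difference was -1.10 (SE 0.62, 95% interval -2.35 to 0.15, limma adjusted p = 0.632). Rpl32 had 0.495, 1.44 and 21.4 RPKM at Day 15, with a difference of 1.10 (SE 0.63, limma adjusted p = 0.634).

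Rps18, of the head of the small subunit, had 0.00765, 0.0965 and 1.19 RPKM in Control and 0.0421, 0.492 and 14.1 RPKM at Day 15. The high value was in Day 15 replicate 2, without which the Day 15 mean went from 2.65 to 0.743 RPKM. The difference was 0.79 (SE 0.47, limma adjusted p = 0.643).

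Day 15 was also set against Day 5 directly. Each of the 31 tested genes had a lower estimate at Day 15, with a median difference of -0.80 on the log2 scale, beside -0.44 over all genes tested (24% above 0). By limma 0 of 31 were called and 0% of all genes tested were called, while 7 of 31 (22.6%) were lower at an unadjusted p under 0.05, where 13.9% of all genes were. Ranges were apart for 0 of 86 genes and for 0.301% of tested genes. Without Day 5 replicates 3 and 6 the median was -0.43, beside -0.37 over all genes, and 6 of the 31 estimates were above 0. This comparison shares its Day 5 libraries with the one against Control, so they are not independent evidence.

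Rps3a, a small subunit protein at the mRNA exit side, had the smallest p. It had 1.02, 2.77 and 22.4 RPKM at Day 5 and 0.162, 0.341 and 2.01 RPKM at Day 15, and all but 3 of the Day 15 libraries lay below every Day 5 library. Its difference was -1.73 (SE 0.58, limma adjusted p = 0.221). Rpl14 had 0.0178, 0.257 and 1.31 RPKM at Day 15 and a difference of -0.99 from Day 5 (SE 0.37, limma adjusted p = 0.246). Rps20, also of the small subunit, had 0.0413, 2.59 and 19.8 RPKM at Day 5 and 0.0161, 0.606 and 1.69 RPKM at Day 15, with a difference of -1.36 (SE 0.54, limma adjusted p = 0.260). Fewer cells of a type and less RNA per cell cannot be told apart in any of these comparisons.

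**Figure D4:**
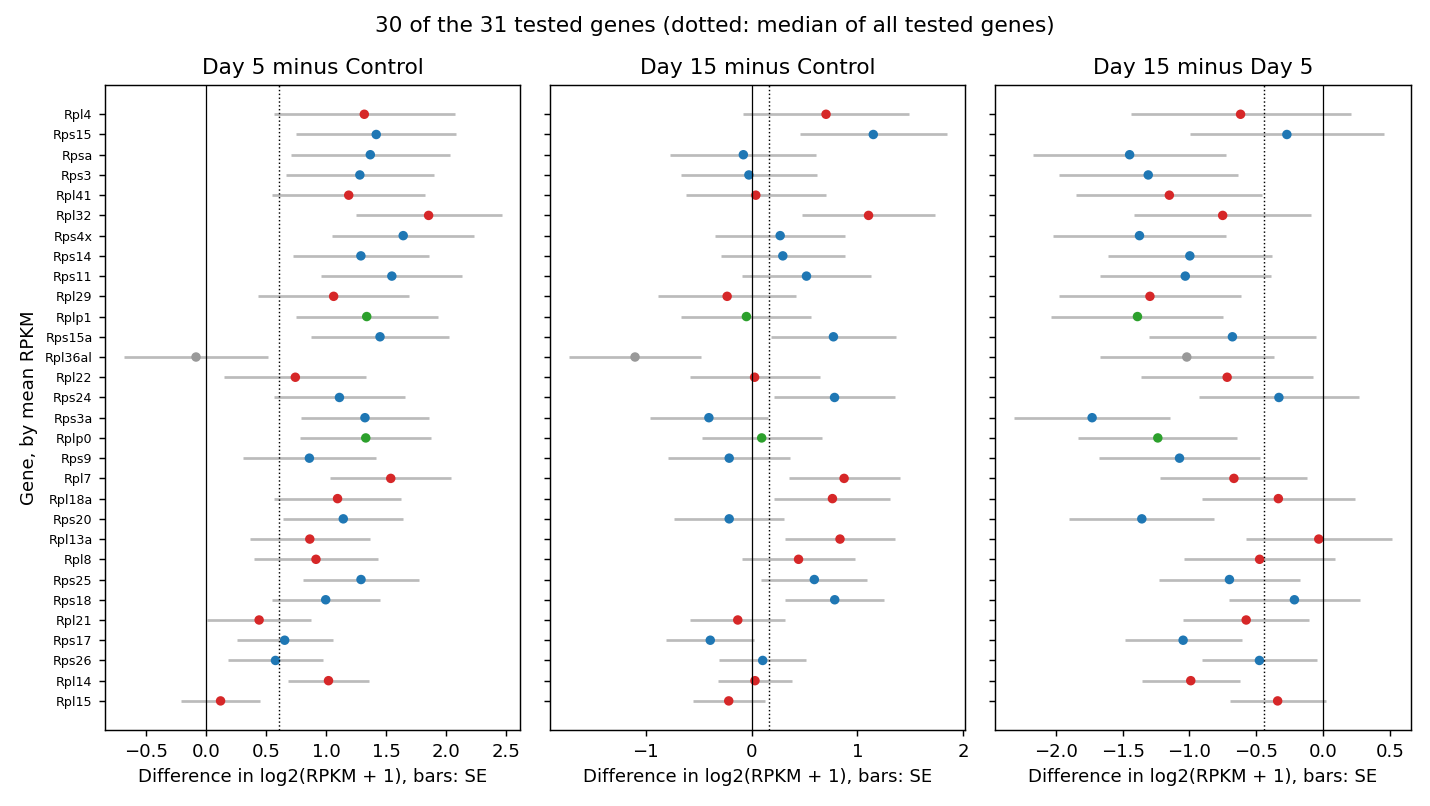
Difference in log2(RPKM + 1) with its SE (bars) for 30 of the 31 tested genes, ordered by mean RPKM, in 3 comparisons (blue small subunit, red large subunit, green stalk, grey paralog). The dotted line marks the median of all 4319 tested genes, at 0.61, 0.17 and -0.44; every gene shown except Rpl36al lies above 0 at Day 5, and every gene shown lies below 0 for Day 15 minus Day 5.

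The ribosomal protein genes varied together from library to library. Over the 25 libraries the median correlation between pairs of the 31 tested genes was 0.546 on the log2 scale, with 463 of 465 pairs above 0. After the group means were removed it was 0.487, with 453 of 465 pairs above 0. All 4319 tested genes had medians of 0.161 and 0.123. Rplp0 lay closest to the rest, with a median correlation of 0.704 with the other 30, and Rps25 followed with 0.684. Rpl15, Rpl36al and Rpl22 lay farthest, with 0.232, 0.257 and 0.317. These are descriptions over points that share a library and its depth.

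**Figure D5:**
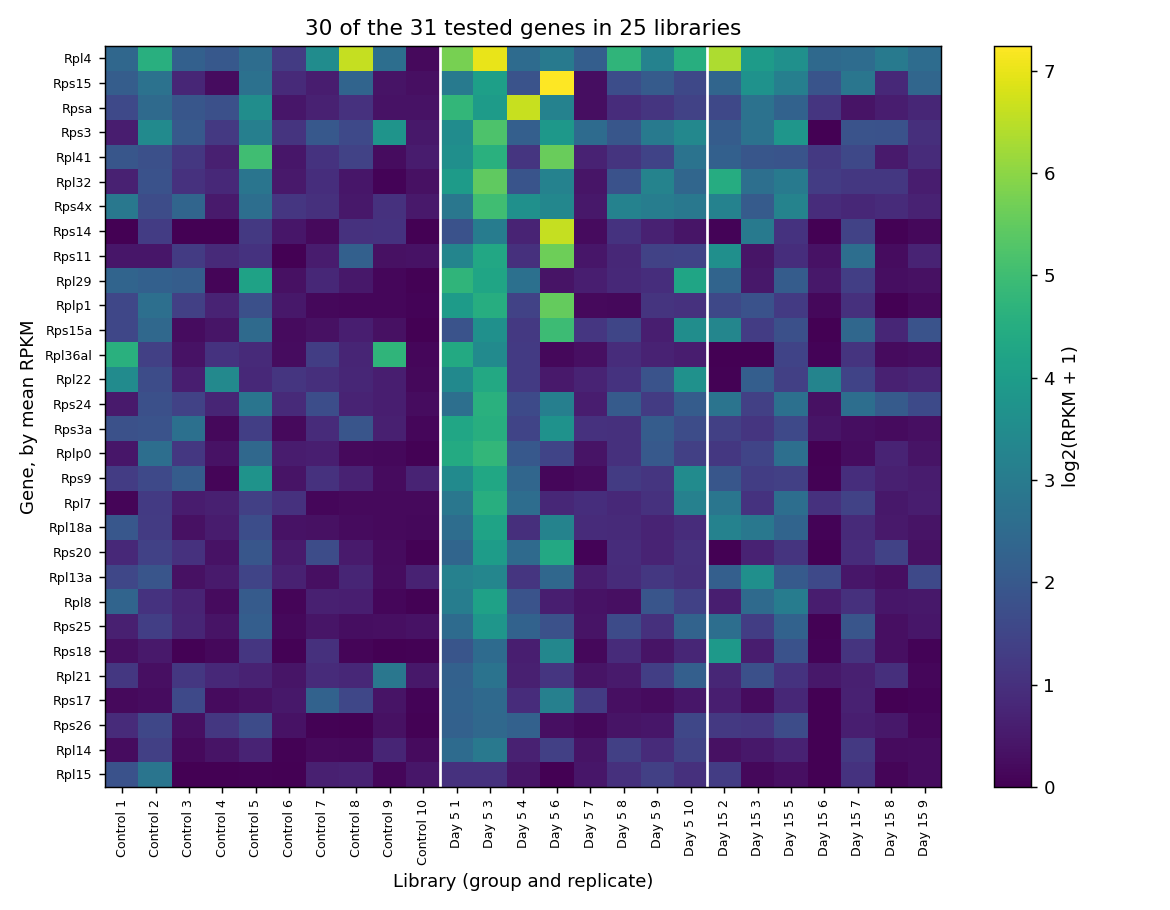
log2(RPKM + 1) of 30 of the 31 tested genes (rows, by mean RPKM) in 25 libraries (columns, by group and replicate). Day 5 replicates 1, 3 and 6 are bright over many rows, and Rpl36al is bright in Control replicates 1 and 9, at 23.3 and 25.8 RPKM.

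Other genes of translation were read from the same limma test, from lists by role. Of 31 initiation factors tested, 2 rose at Day 5: Eif3l, by 1.96 on the log2 scale (adjusted p = 0.0241), and Eif3d, by 1.95 (adjusted p = 0.0263), both subunits of the complex that brings mRNA to the small subunit. That count is near the 6.02% of all tested genes that rose at Day 5. Of 7 elongation factors tested, 1 was called, where 6.02% of all tested genes rose. Eif5a, which relieves stalled ribosomes, rose by 1.90 on the log2 scale (adjusted p = 0.0493). Its mean was 0.672 RPKM in Control and 22.3 RPKM at Day 5. Single high libraries weigh more in such means than on the log2 scale. The medians were 1.30 for the initiation and 1.19 for the elongation factors, close to the 1.14 of the ribosomal proteins. None of 18 ribosome biogenesis genes passed (median 0.54). The smallest p-values there were those of Sbds, which helps to join the subunits (difference 0.84, adjusted p = 0.133), and the nucleolar helicase Ddx21 (0.84, adjusted p = 0.135). None of 11 chaperones, S6 kinases and genes of the Mdm2 pathway passed (median 0.64), with Nap1l1, a histone chaperone, at 1.44 (adjusted p = 0.0796) and the kinase Rps6ka3 at 0.97 (adjusted p = 0.148). The 2 mitochondrial ribosomal proteins that could be tested, Mrpl18 and Mrpl17, had differences of 0.32 and -0.11 (adjusted p = 0.680 and 0.919). Gnb2l1, whose product Rack1 sits on the small subunit but whose symbol is outside the pattern, had a difference of 1.66 at Day 5 (adjusted p = 0.137). At Day 15 none of these lists had a gene called by limma. The smallest adjusted p among them was that of Bms1, a GTPase of small subunit assembly, at 0.169 with a difference of 1.97 from Control. Against Day 5 it was that of the initiation factor Eif3i, at 0.193 with a difference of -1.54.

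Markers of other cells moved at Day 5. Of 12 macrophage markers tested, 11 rose at Day 5 by limma, and so did 5 of 16 microglia markers, while 0 of 8 precursor, 0 of 13 myelin, 0 of 9 astrocyte and 0 of 4 neuron markers were called. Of all tested genes 6.02% rose at Day 5. The marker lists were chosen with earlier results of these data known, so these counts are descriptions and not independent evidence. Lyz2, a lysozyme of myeloid cells, rose by 5.40 on the log2 scale (adjusted p = 0.000136), and Ctss, a lysosomal protease of microglia, by 3.32 (adjusted p = 0.0111). The summed RPKM of the macrophage markers was 1.67 to 129 in Control (median 14.7), 163 to 2635 at Day 5 (median 882) and 51.1 to 606 at Day 15 (median 119). For the microglia markers the ranges were 13.0 to 80.3, 86.2 to 696 and 52.0 to 1654, with medians of 165 RPKM at Day 5 and 264 RPKM at Day 15. Their median limma difference from Control was 1.13 on the log2 scale at Day 5 and 1.69 at Day 15. At Day 15, 11 of the 16 were higher at an unadjusted p under 0.05 by limma, and 0 were called. For the macrophage markers the median difference was 2.72 at Day 5 and 0.835 at Day 15. The part of these cells in the Day 5 values of the ribosomal protein genes was not tested. When each library's count of genes at 1 RPKM or more was a covariate, the median Day 5 difference of the 31 genes was 0.29, beside 0.07 over all genes, and Rpsa, Rpl4 and Rplp0 had estimates below 0.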

How the data were processed

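The authors deposited 1 table of RPKM values per gene and library. The submitters' processing notes name STAR 2.1.4a, HTSeq, CASAVA 1.8.3 and the mouse build mm9. How gene length, strand and reads with several matches were handled is unknown from the sources used here. Amplified cDNA was sequenced as paired 100 bp reads, per the labels' protocols. Groups come from the labels.

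From these values log2(RPKM + 1) was computed, and limma 3.58.1 (R 4.3.3; lmFit, eBayes with trend and robust variance, two-sided) was fitted to all 25 libraries without covariates. The test covered the 4319 of 23351 genes that reached 1 RPKM in 7 or more libraries, with Benjamini-Hochberg adjustment and a threshold of 0.05. The fit was run on simulated data with independent normal values for each gene. Measured genes varied together across libraries, so that run does not vouch for the p-values. Members and gene lists were chosen with earlier results of these data known. Genes named are the 3 members with the smallest p in each comparison, the 3 highest of each subunit, the stalk genes, Rpsa, the paralogs and, of the other lists, called genes or those with the smallest p (markers: the first of each called list); genes matching the most other genes or at the ends of the correlation order were named after their values were seen. No 2 libraries were near-identical (highest correlation 0.425). Sequence and gene models come from GRCm38, a later build than that of the files, matched by symbol. Alternatives covered the pseudocount, filter, scaling, covariates, library weights, a replicate block and single libraries left out. 1 of the tested genes entered all counts and medians but is not reported here by name or drawn in plots that name genes.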

Additional observations from a re-analysis of the deposited data

Results flagged for a closer look

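Of 57 groups of values examined for a library far from the others, 5 had one, where chance gives about 1 in 20. In Control replicate 8 the summed RPKM of the large subunit was 4.87 times that of the small subunit, and Rpl4 made up 75.1% of all ribosomal protein RPKM there. Rpl14 stood at 1.36 on the log2(RPKM + 1) scale in Control replicate 2, above the other 9 Control libraries. Rpl4 stood at 6.34 in Day 15 replicate 2, Rpl41 at 5.02 in Control replicate 5, and Rplp2 at 2.71 in Day 5 replicate 3. Each is the highest of its group for that gene.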

How the results depend on the processing

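The number of ribosomal protein genes called by limma at Day 5 depended on the settings. It was 0 in the reported fit, 3 with a pseudocount of 0.1, 2 with the compared groups fitted alone, 5 with the range of the title number as a covariate, 5 with library weights, and 0 to 6 with 1 library left out. With the replicate number as a block it was 9, but the numbers do not pair the samples: over 8 pairs of Day 5 and Control libraries the median correlation of deviations was 0.011. Counts for Day 15 against Control and against Day 5 were 0 in all settings run. The median Day 5 difference was 0.53 with upper-quartile scaling (all genes 0.10), 0.54 by summed RPKM (0.15), 0.40 after quantile scaling (-0.02), 1.39 with the block, and 1.72 and 0.56 within titles numbered 1 to 6 and 7 to 10. It was above 0 in every setting run. The all-gene medians with the block and within the title ranges are not given here. Control libraries titled 1 to 6 had 9588 to 14142 genes above 0, and those titled 7 to 10 had 16013 to 17407. The median at Day 15 turned negative under the upper-quartile, summed RPKM and quantile scalings (-0.09, -0.17 and -0.08). It was also negative when the count of detected genes was a covariate (-0.17).

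Some single genes changed sign. With that covariate, Day 5 differences were -0.0443 for Rpsa, -0.0048 for Rpl4 and -0.11 for Rplp0, and Day 15 differences -0.23 for Rpl41 and -0.33 for Rplp0. At Day 15, Rpl41 and Rplp0 were at -0.21 and -0.0900 with upper-quartile scaling, -0.33 and -0.17 by summed RPKM, -0.16 and -0.0828 after quantile scaling, and -0.14 and -0.0142 with the block, where Rpsa was at 0.15. Rplp1 was at 0.0028 with the title range, 0.0169 without Day 5 replicate 4 and Day 15 replicates 5 and 6, where Rplp0 was at -0.0544, and 0.0090 with library weights. The cause was not tested. The unknown depth limits all low values.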

Other observations

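The 6 rows marked as ribosomal protein pseudogenes in the table were left out of the family. The highest was Rps15a-ps6, with a mean of 0.677 RPKM over 25 libraries and a highest value of 4.93 RPKM. Rplp2-ps1 was listed at 0 in all 25, and the other 4 averaged at most 0.131 RPKM. The ratio of summed large to summed small subunit RPKM had a median of 1.15 in Control libraries, 1.17 at Day 5 and 1.38 at Day 15, with overlapping ranges.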
